A study of Capsicum annuum and Capsicum annuum
Solanum lycopersicum with 48 samples.

Results

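Ethylene is made from S-adenosylmethionine by ACC synthase (ACS), which makes the precursor ACC, and ACC oxidase (ACO), which turns ACC into the gas. ACC synthase is usually the limiting step, and both enzymes come in families whose members differ in tissue and trigger, wounding and fruit ripening among them. Grafting wounds both partners, and ethylene is among the hormones known from wounded stems. The tomato genes followed here are the ACC synthases ACS1A (Solyc08g081550), ACS2 (Solyc01g095080), ACS4 (Solyc05g050010), ACS6 (Solyc08g008100) and ACS8 (Solyc03g043890), and the ACC oxidases ACO1 (Solyc07g049530), ACO3 (Solyc07g049550) and ACO4 (Solyc02g081190). These 8 genes were chosen by name, and 7 of them had a row among the 33604 tomato rows of both tables used. ACS6 was not analysed here.

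Graft junctions, with a piece of scion and stock, were made from pepper (variety Big Dipper) and tomato (variety M82) as pepper:tomato, tomato:pepper and the tomato self-graft, written scion:stock, and taken at 1, 3 and 5 days after grafting (DAG). Tomato RNA came from the stock alone in pepper:tomato, from the scion alone in tomato:pepper, and from both partners in the self-graft. Each of the 9 groups had 4 labelled replicates. The expression values used here are pooled, with a single one per group, so they give no spread between plants, no test and no library depth, and every comparison below is a description. Plants were dark for the first 3 days and in light from day 4, so time and light cannot be told apart in any comparison with 5 DAG.

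Expression was given as FPKM (fragments per kilobase of gene, scaled to the fragments of the group), which allows levels to be compared between genes. In the heterografts that scaling is shared with pepper genes. Tomato values were therefore also divided by the tomato total of each group and set to a sum of 1000000, here called tomato TPM. Changes are log2 ratios of level + 1 and were called at 2-fold (log2 of 1) or more, for genes at 1 or more in at least 1 of the groups compared, in FPKM within the self-graft and in tomato TPM wherever a heterograft took part. Most called changes are read beside the share called over all tomato genes kept, many of them with the median as well. Fewer tomato cells and less RNA per cell cannot be told apart in these bulk samples.

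The heterograft groups at 3 DAG stood apart from the days around them. Tomato genes held 17.9%, 51.7% and 23.1% of summed FPKM in pepper:tomato at 1, 3 and 5 DAG, and 59.5%, 29.7% and 49.2% in tomato:pepper. WOX4, a regulator of the vascular cambium, was at 48.7, 3.00 and 59.2 tomato TPM in pepper:tomato, and at 9.78, 35.0 and 23.7 in tomato:pepper. As labelled, 6 of 7 vascular genes (WOX4 and the PXY, VND6 and VND7 genes) were lower at 3 than at 1 DAG in pepper:tomato, against 48.9% of all tomato genes kept, and 7 of 7 were higher at 5 than at 3 DAG, against 40.4%. Results that use 3 DAG of a heterograft are therefore given as labelled and again after swapping the 3 DAG values between the heterografts. After the swap, pepper:tomato had 3 of 7 vascular genes lower at 3 over 1 DAG and 2 of 7 higher at 5 over 3 DAG. The shares over all genes were 34.5% and 20.6%. Tomato:pepper as labelled had 5 of 6 kept higher at 3 over 1 DAG, against 12.6% of genes. It had 0 of 6 called at 5 over 3 DAG, against 11.5% called in either direction. After the swap, tomato:pepper had 2 of 3 kept lower and 5 of 5 kept higher, against 9.02% and 22.5% of genes. Which labels are right was not tested. Among markers of the stem, WOX4 had 15.1 to 20.8 FPKM in the self-graft, while the VND6 and VND7 genes, regulators of xylem vessels, stayed between 0.490 and 0.972 FPKM.

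**Figure D1:**
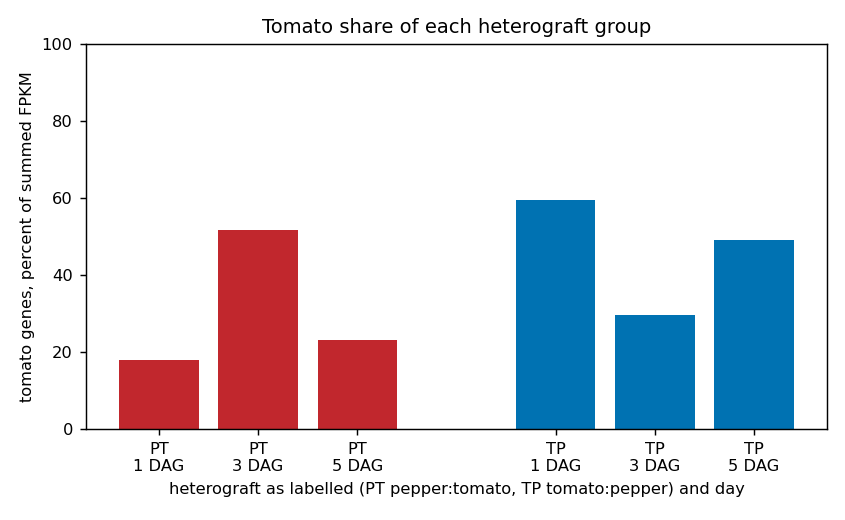
Bars give the summed FPKM of tomato genes as percent of all genes in each heterograft group as labelled, with a single value per group and no error bar. The bar of pepper:tomato at 3 DAG reaches 51.7%, between 17.9% at 1 DAG and 23.1% at 5 DAG, and that of tomato:pepper at 3 DAG stands at 29.7%, between 59.5% and 49.2%.

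ACS2, an ACC synthase known from ripening fruit, was the only 1 of the 4 followed ACC synthases with a row that reached 1 FPKM. It was not the main ACC synthase in every group, since Solyc08g079750, taken as a further ACC synthase from general nomenclature, was at 1.42 to 6.02 FPKM over the 9 groups. That gene had 6.02 and 4.12 FPKM in the self-graft at 3 and 5 DAG, where ACS2 had 3.94 and 0.594 FPKM. ACS1A was listed at 0 in 9 of 9 groups. ACS8 was listed at 0 in 7 groups, with 0.0115 FPKM in pepper:tomato at 5 DAG and 0.0295 FPKM in the self-graft at 1 DAG. ACS4, also known from ripening fruit, was listed at 0 in pepper:tomato at 1 DAG and reached 0.0977 FPKM in tomato:pepper at 3 DAG as labelled. All 3 stayed under 1 FPKM in the 9 groups, so the changes below concern 4 of the 7 genes with a row, ACS2, ACO1, ACO3 and ACO4.

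ACS2 was highest at 1 DAG in each of the 3 grafts. Its level in pepper:tomato was 5.28, 1.01 and 1.88 FPKM at 1, 3 and 5 DAG, which is 24.3, 1.14 and 6.64 tomato TPM. In tomato:pepper the values were 9.42, 1.92 and 0.581 FPKM, or 11.2, 3.72 and 1.05 tomato TPM. Self-graft levels were 13.4, 3.94 and 0.594 FPKM. The self-graft stepped down at each interval, while pepper:tomato as labelled was higher at 5 than at 3 DAG. After the swap, ACS2 was at 24.3, 3.72 and 6.64 tomato TPM in pepper:tomato and at 11.2, 1.14 and 1.05 in tomato:pepper. At 5 DAG the self-graft and tomato:pepper were both near or under 1 on either scale, and pepper:tomato was not.

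ACO4 was above ACO1 and ACO3 in all 9 groups. It was not the main ACC oxidase in every group, given Solyc02g036350, taken as a further ACC oxidase from general nomenclature. That gene had 401, 183 and 104 FPKM in the self-graft at 1, 3 and 5 DAG, above ACO4 at each time. It had 74.4, 109 and 19.1 FPKM in pepper:tomato and 182, 85.1 and 43.6 FPKM in tomato:pepper as labelled. ACO4 was above it in pepper:tomato at 1 and 5 DAG and in tomato:pepper at 5 DAG. The ACO4 level in pepper:tomato was 182, 34.7 and 35.0 FPKM at 1, 3 and 5 DAG, or 838, 39.1 and 123 tomato TPM. In tomato:pepper the values were 179, 52.5 and 57.3 FPKM, or 214, 102 and 103 tomato TPM. Self-graft levels were 333, 71.1 and 95.6 FPKM, or 384, 50.6 and 103 tomato TPM. All 3 grafts thus had their highest ACO4 at 1 DAG on both scales, where it ranked 135th among tomato genes in pepper:tomato, 795th in tomato:pepper and 399th in the self-graft. The order of the grafts at 1 DAG depends on the scale, with the self-graft on top in FPKM and pepper:tomato in tomato TPM. After the swap, ACO4 was at 102 tomato TPM in pepper:tomato and 39.1 in tomato:pepper at 3 DAG.

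ACO1 is best known as an ACC oxidase of ripening fruit and wounded leaves. Among the ACC oxidases followed, it was next below ACO4 in the self-graft at each time, ahead of ACO3. Its level in pepper:tomato was 2.03, 6.42 and 4.89 FPKM at 1, 3 and 5 DAG, or 9.36, 7.23 and 17.2 tomato TPM. In tomato:pepper the values were 7.84, 7.30 and 6.35 FPKM, or 9.36, 14.2 and 11.5 tomato TPM. Self-graft levels were 29.6, 8.98 and 9.57 FPKM. A level at 1 DAG well above the later days was thus seen for ACO1 in the self-graft and in neither heterograft.

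ACO3, a close relative of ACO1, measured 5.06, 5.54 and 3.68 FPKM in pepper:tomato at 1, 3 and 5 DAG, or 23.3, 6.24 and 12.96 tomato TPM. In tomato:pepper the values were 19.9, 2.67 and 2.04 FPKM, or 23.8, 5.18 and 3.67 tomato TPM. Self-graft levels were 21.9, 4.81 and 3.74 FPKM, or 25.3, 3.42 and 4.04 tomato TPM. In tomato TPM the 3 grafts were thus close at 1 DAG and pepper:tomato was above the others at 5 DAG, but not above the self-graft in FPKM. How reads shared by related ACO genes, or with pepper genes, were divided was not tested, so the split between ACO1 and ACO3 is uncertain.

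**Figure D2:**
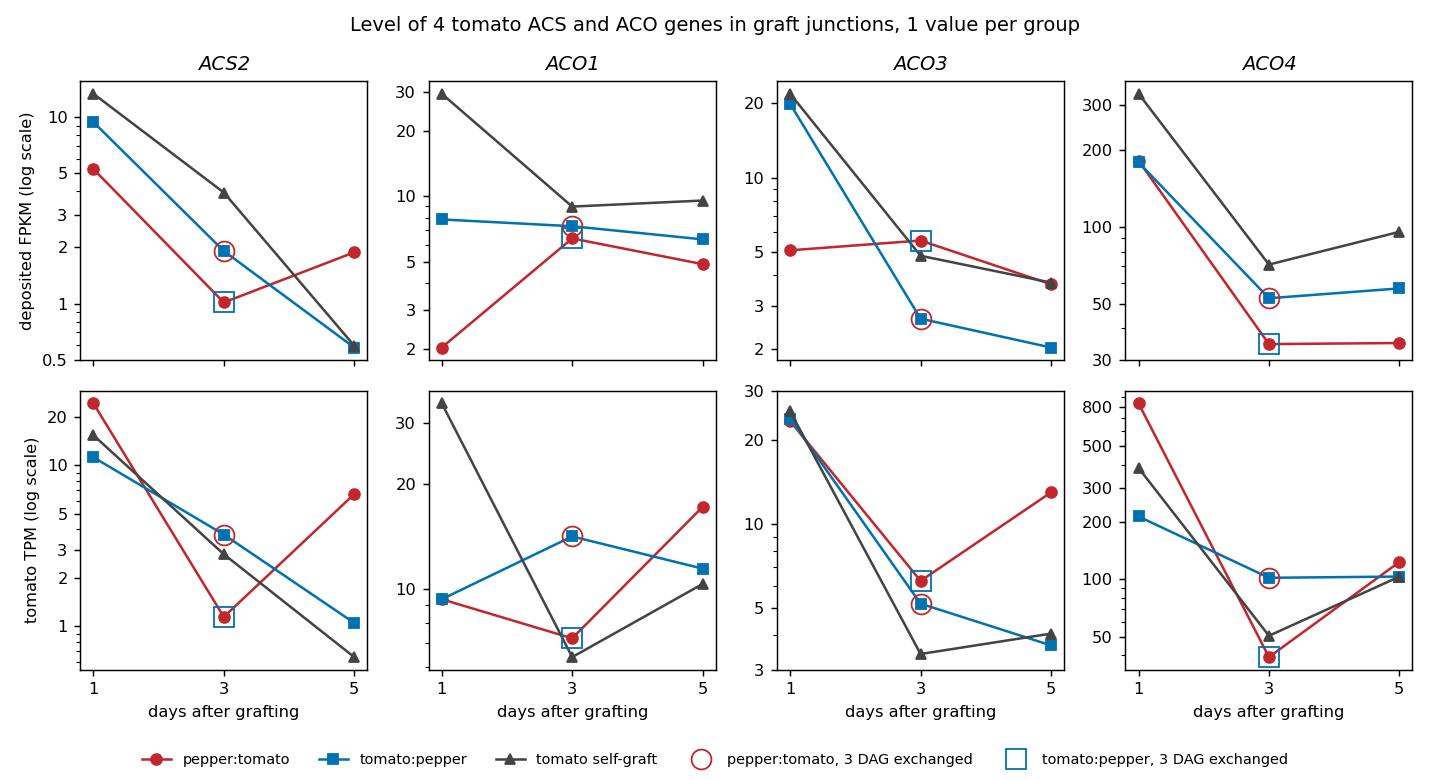
Columns are ACS2, ACO1, ACO3 and ACO4, with deposited FPKM above and tomato TPM below, on log scales against days after grafting, with a single value per group and no error bar, filled symbols following the labels and open symbols 3 DAG after the swap between the heterografts. Self-graft levels of the 4 genes are highest at 1 DAG, and ACS2 of pepper:tomato at 3 DAG is at 1.14 tomato TPM as labelled and 3.72 after the swap.

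Between 1 and 3 DAG, callus forms at the junction. In pepper:tomato as labelled, ACS2, ACO3 and ACO4 were lower at 3 DAG, with log2 changes of -3.56, -1.75 and -4.39, though in deposited FPKM ACO3 was at 0.11. ACO1 was at -0.33, but at 1.29 in deposited FPKM, where the median over tomato genes was 0.83. In tomato TPM, 48.9% of the 19991 tomato genes kept were lower, with a median of -0.97. Lower calls were thus common among all genes as well. After the swap, 34.5% of genes were lower, ACS2, ACO3 and ACO4 were again lower (-2.43, -1.98 and -3.03), and ACO1 was at 0.55. ACO4 stood near the end of the distribution in both settings, with 0.815% of genes below it as labelled and 1.2% after the swap.

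For tomato:pepper as labelled, ACS2, ACO3 and ACO4 were lower at 3 than at 1 DAG, against 7.45% of 18515 genes and a median of 0.02. Their log2 changes were -1.38, -2.01 and -1.06, and ACO1 was at 0.55. After the swap, ACS2, ACO3 and ACO4 were lower (-2.51, -1.78 and -2.42), against 9.02% of genes, and ACO1 was at -0.33. ACS2, ACO3 and ACO4 were thus lower at 3 than at 1 DAG in both heterografts, whichever labels were used, in tomato TPM. Relative to the median over all genes, however, ACO3 in pepper:tomato as labelled was at -0.78, under 2-fold.

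For the self-graft, ACS2, ACO1, ACO3 and ACO4 were lower at 3 than at 1 DAG, against 4.95% of 18813 genes and a median of 0.06. ACO4 changed by -2.21, ACO3 by -1.98, ACO1 by -1.61 and ACS2 by -1.54 on the log2 scale. Without the added 1, the levels were 3.29-fold (ACO1), 3.39-fold (ACS2), 4.56-fold (ACO3) and 4.68-fold (ACO4) lower. From 0.409% (ACO4) to 1.30% (ACS2) of genes had a lower change.

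Between 3 and 5 DAG, ACO1, ACO3 and ACO4 of the self-graft stayed within 2-fold in FPKM and ACS2 did not. In pepper:tomato as labelled, ACS2, ACO1 and ACO4 were higher at 5 DAG (1.83, 1.15 and 1.63), against 40.4% of genes and a median of 0.75. In deposited FPKM none of these was called, at 0.52, -0.33 and 0.013, against a median of -0.72. After the swap, ACO3 alone was called in pepper:tomato, higher by 1.18, against 20.6% of genes and a median of 0.39. In tomato:pepper as labelled, ACS2 alone was called, lower at -1.20, against 4.84% of genes and a median of 0.19. It was at -0.88 in deposited FPKM, where the median was 0.26, and so was not called there. After the swap, ACO4 alone was called in tomato:pepper, higher by 1.38, against 22.5% of genes and a median of 0.47. Relative to that median ACO4 was at 0.91. In the self-graft ACS2 alone was called in FPKM, lower at -1.63, against 8.17% of genes and a median of -0.06. The 3 ACC oxidases lay between -0.29 (ACO3) and 0.42 (ACO4). In tomato TPM, the scale of the heterografts, self-graft ACO4 was called as well, higher by 1.02, and ACO3 was at 0.19. None of the 4 genes was called in the same direction in all 3 grafts in this interval, as labelled or after the swap.

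Comparisons of 5 with 1 DAG do not use the 3 DAG groups. In pepper:tomato, ACS2 and ACO4 were lower at 5 DAG (-1.73 and -2.75), against 12.4% of 20501 genes and a median of -0.25. ACO3 and ACO1 were within 2-fold there, at -0.80 and 0.81. In tomato:pepper, ACS2, ACO3 and ACO4 were lower at 5 DAG (-2.58, -2.41 and -1.04), against 5.29% of 18723 genes and a median of 0.26, and ACO1 was at 0.27. In the self-graft all 4 were lower at 5 DAG, against 5.87% of 19048 genes and a median of -0.01. ACS2 changed by -3.17 there, with 0.157% of genes below it, and by -4.28 with a pseudocount of 0.1 and -1.71 with 5, while the levels themselves were 22.5-fold lower. The 3 ACC oxidases ranged from -1.53 (ACO1) to -2.27 (ACO3). ACS2 and ACO4 were thus called lower at 5 than at 1 DAG in each of the 3 grafts. Whether the grafts differ in these changes was not tested, since no spread is known.

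**Figure D3:**
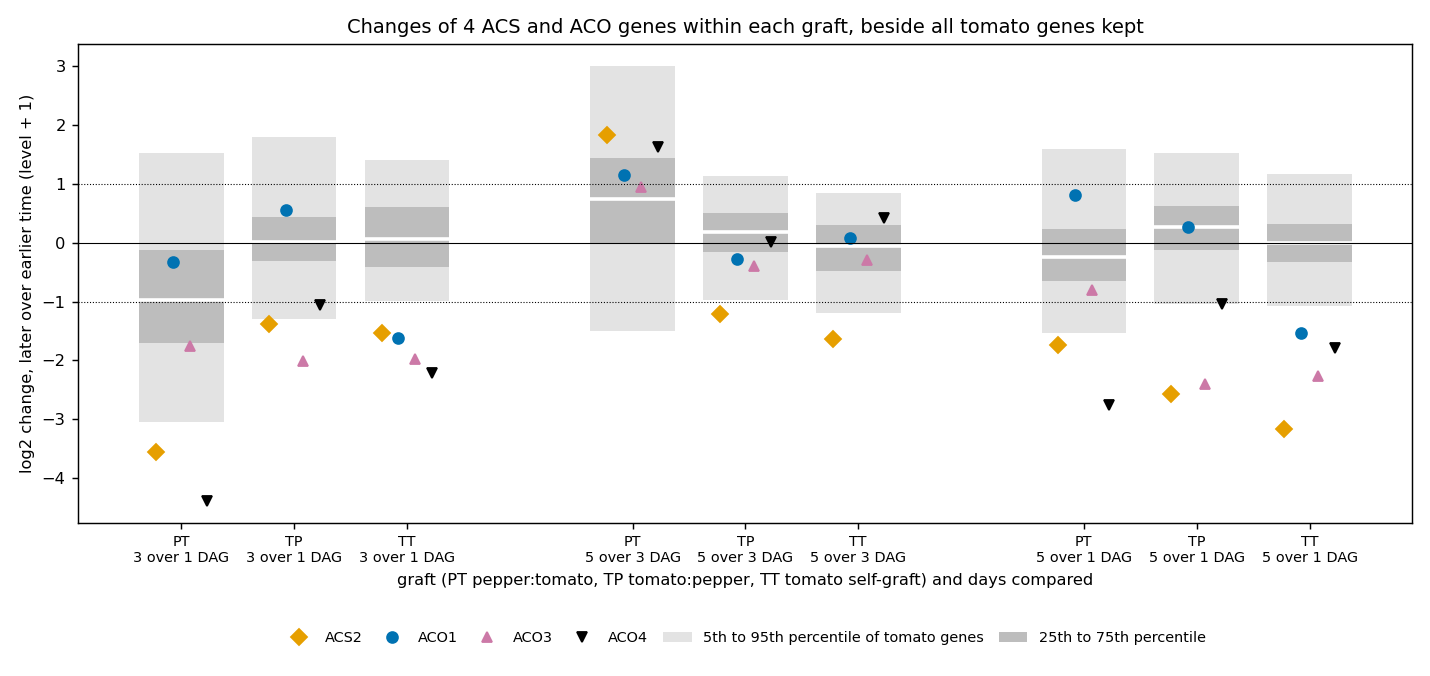
Points give the log2 change of ACS2, ACO1, ACO3 and ACO4 between times within each graft as labelled, from tomato TPM for the heterografts and FPKM for the self-graft, with light and dark bars for the 5th to 95th and the 25th to 75th percentiles of all tomato genes kept, white lines for their medians and dotted lines at 2-fold. At 3 over 1 DAG and at 5 over 1 DAG the 4 self-graft points lie below the light bar, from -1.53 (ACO1) to -3.17 (ACS2).

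Shares among ACO1, ACO3 and ACO4 do not depend on how a group is scaled. Their sum leaves out Solyc02g036350, the further ACC oxidase above. In the self-graft at 1, 3 and 5 DAG that gene had 401, 183 and 104 FPKM, against a 3-gene sum of 384, 84.9 and 109 FPKM. In pepper:tomato at 1 DAG it had 74.4 FPKM, against a sum of 189 FPKM. ACO4 made up 96.2%, 74.4% and 80.3% of the 3-gene sum in pepper:tomato at 1, 3 and 5 DAG. The values were 86.6%, 84.0% and 87.2% in tomato:pepper, and 86.6%, 83.8% and 87.8% in the self-graft. As labelled, ACO4 thus kept a similar share over time in tomato:pepper and the self-graft, and varied more in pepper:tomato. ACO1 held 1.07%, 13.7% and 11.2% of the sum in pepper:tomato. Tomato:pepper had 3.79%, 11.7% and 9.66% of ACO1, and the self-graft 7.70%, 10.6% and 8.79%. Its share was thus lowest at 1 DAG in all 3 grafts, and at that time lowest in pepper:tomato. ACO3 held 2.68%, 11.9% and 8.44% of the sum in pepper:tomato. Tomato:pepper had 9.64%, 4.27% and 3.10% of ACO3, and the self-graft 5.70%, 5.66% and 3.43%. ACO3 thus had its largest share at 1 DAG in tomato:pepper and its smallest at 1 DAG in pepper:tomato, among the 3 days as labelled. After the swap, pepper:tomato had 84.0% of ACO4 and 4.27% of ACO3 at 3 DAG, and tomato:pepper had 74.4% and 11.9%.

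**Figure D4:**
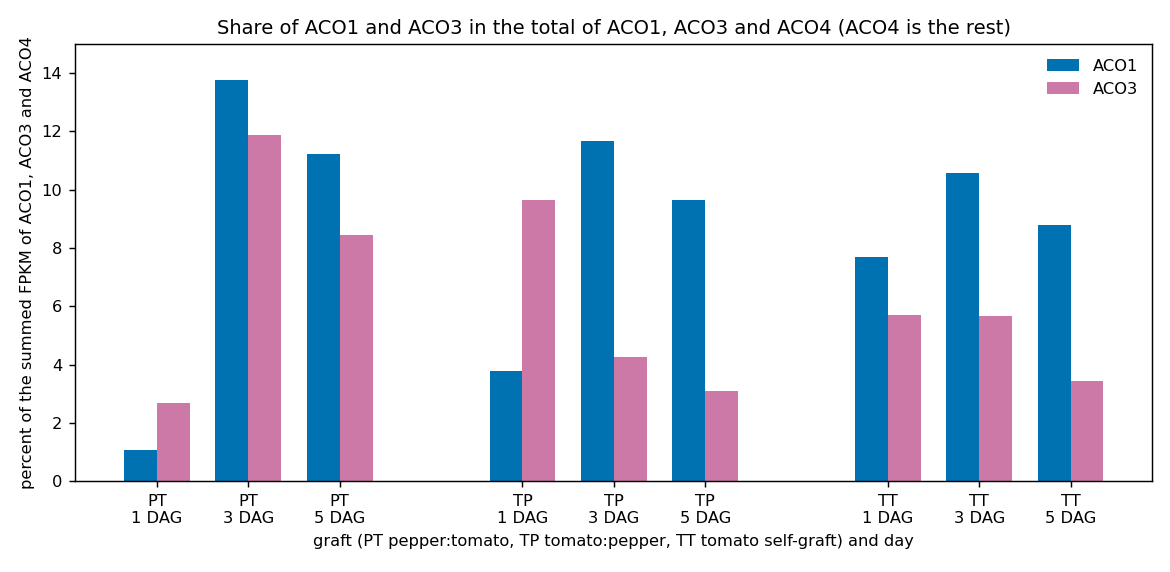
Bars give ACO1 and ACO3 as percent of the summed FPKM of ACO1, ACO3 and ACO4 in each group as labelled, with a single value per group, no error bar and ACO4 as the rest. At 1 DAG the ACO1 bar is 1.07% in pepper:tomato and 3.79% in tomato:pepper, against 7.70% in the self-graft.

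Set against the self-graft at the same time, both heterografts had less ACO1 at 1 DAG. The tables of heterografts and self-graft were normalized separately, so these are differences in tomato TPM. In pepper:tomato at 1 DAG, ACO1 was lower (-1.76, against 13.6% of 20289 genes), and ACO4 was higher (1.12, against 24.5% of genes and a median of 0.34), though at -0.87 in deposited FPKM. ACS2 and ACO3 were at 0.63 and -0.11 there, but at -1.19 and -1.92 in deposited FPKM, where the median over tomato genes was -1.37. In tomato:pepper at 1 DAG, ACO1 was lower (-1.76), where 24.0% of genes were lower and the median was -0.42, and relative to that median ACO1 was at -1.34. ACO1 stood at 9.36 tomato TPM in both heterografts, against 34.1 in the self-graft.

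In pepper:tomato at 5 DAG, ACS2 and ACO3 were higher than in the self-graft (2.22 and 1.47, against 21.0% of genes and a median of 0.28). Neither was called in deposited FPKM, at 0.86 and -0.018. ACO4 was at 0.25. In deposited FPKM it was the 1 gene called, lower at -1.42, where the median over tomato genes was -1.19. ACS2 had 6.64 tomato TPM in pepper:tomato, against 0.643 in the self-graft, and 97.5% of genes had a lower ratio. Tomato:pepper at 5 DAG had 0 of the 4 genes called, where 17.7% of genes were called in either direction, with differences from -0.11 (ACO3) to 0.32 (ACS2). At 3 DAG as labelled, pepper:tomato had 0 of the 4 genes called against the self-graft, where 20.4% of genes were called in either direction. ACO1 was higher in tomato:pepper at 3 DAG (1.04, against 18.6% of genes), though at -0.27 in deposited FPKM. After the swap, this call changes grafts.

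Between the heterografts, tomato stock in pepper:tomato was set against tomato scion in tomato:pepper. At 1 DAG, ACO4 and ACS2 were higher in pepper:tomato (1.97 and 1.05), against 38.6% of genes and a median of 0.73, and in deposited FPKM they were at 0.020 and -0.73. ACO3 was at -0.03 and ACO1 was level, with 9.36 tomato TPM in each. In deposited FPKM they were lower in pepper:tomato, at -1.79 and -1.55, where the median was -0.99. At 5 DAG, ACS2 and ACO3 were higher in pepper:tomato (1.90 and 1.58), against 14.3% of genes and a median of 0.25. In deposited FPKM they were at 0.87 and 0.62, where the median was -0.60. At 3 DAG as labelled, ACO4 and ACS2 were lower in pepper:tomato (-1.36 and -1.14, against 19.7% of genes and a median of -0.22). The swap turns both signs. Vascular genes were higher in pepper:tomato as well, 6 of 7 at 1 DAG and 5 of 7 at 5 DAG, against 38.6% and 14.3% of genes. Their part in these differences was not tested.

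Other steps of the pathway were taken from a list of 27 further tomato identifiers, set from general nomenclature and not annotated in the files, of which 26 had a row of their own. At 5 over 1 DAG in the self-graft, 2 of 3 S-adenosylmethionine synthetases, which make the substrate of ACC synthase, were higher, against 6.72% of genes. Of the receptors with a row, 1 of 6 was lower, against 5.87% of genes, and 0 of 8 signalling genes were called. Both genes that respond to ethylene were lower. Of the other ACS genes 1 of 4 was kept and within 2-fold, and of the other ACO genes 1 of 3 was kept and lower. In tomato:pepper at 5 over 1 DAG, where 12.1% of all genes were higher and 5.29% lower, 1 of the 2 ethylene-responsive genes and 1 of 2 other ACO genes kept were lower. In that graft 0 of 3 synthetases, 0 of 6 receptors, 0 of 8 signalling genes and 0 of 1 other ACS genes kept were called. In pepper:tomato, where 9.75% were higher and 12.4% lower, 1 of 3 synthetases was higher, and 1 of 6 receptors, 1 of 2 other ACS genes and 1 of 2 other ACO genes kept were lower. There 0 of 8 signalling genes and 0 of 2 ethylene-responsive genes were called. Of all genes, 12.6% in the self-graft, 17.3% in tomato:pepper and 22.2% in pepper:tomato were called in either direction at 5 over 1 DAG. At such shares few calls would be expected among 8 genes, so 0 of 8 does not set the signalling genes apart. Whether they differ from ACS2 and ACO4 was not tested.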

How the data were processed

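Graft junctions (4 replicates per group by the labels) were sequenced as poly(A) RNA. The authors made the deposited FPKM values with TuxNet at default settings (fastq-mcf, HISAT2, Cufflinks; versions not given in the sources used here) against tomato ITAG3.2, or tomato and pepper CM334 joined for heterografts, with 1 value per group. Columns of log2 fold changes and q values of the authors' own comparisons were not used, nor was the pepper self-graft table. Depth per library is unknown. Identifiers were matched before the dot; 1757 tomato rows join several identifiers and none holds a gene followed here.

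Tomato TPM is FPKM over the tomato sum of the group, times 1000000. Changes used log2(level + 1), a level minimum of 1 in the groups compared, and a call at log2 of 1. Beside most called changes stand shares, and beside many of them medians, over all tomato genes kept. Self-graft changes used FPKM as deposited. The members and lists were chosen with earlier results of these data known. All 8 genes followed are named, 1 further item is not reported here, and pathway genes are given as counts, since neither the files nor the reference (0 tomato identifiers matched) annotate them. Alternatives changed the pseudocount (0.1, 5), the level minimum (none, 5), the fold (log2 of 2), the scale, the centring and the 3 DAG labels. The code was tested on simulated data. Python 3.11.15, pandas 2.3.3, numpy 2.4.6 and matplotlib 3.10.9 were used.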

Additional observations from a re-analysis of the deposited data

Results flagged for a closer look

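In 2 cases a gene passed 2-fold in opposite directions in different grafts over the same interval, as labelled. ACS2 at 5 over 3 DAG changed by a log2 ratio of 1.83 in pepper:tomato and -1.20 in tomato:pepper, a difference of 3.04. Against the self-graft, at -1.63, the difference was 3.47. Neither difference was tested, since each group has 1 value. Both use 3 DAG of pepper:tomato, whose tomato share and vascular genes stand apart from 1 and 5 DAG. After the swap, 5 of 5 vascular genes kept in tomato:pepper were higher at 5 than at 3 DAG, where 22.5% of all genes were. As labelled, 0 of 6 were higher, where 6.65% of all genes were. After swapping 3 DAG between the heterografts, ACS2 at 5 over 3 DAG was at 0.69 in pepper:tomato and was not called. In deposited FPKM as labelled, ACS2 was at 0.52 in pepper:tomato and -0.88 in tomato:pepper, so neither was called. Medians over tomato genes were -0.72 and 0.26 there. With a pseudocount of 5, ACS2 was at 0.92, -0.53 and, in the self-graft, -0.68, again without a call.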

How the results depend on the processing

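Counts of the 4 expressed genes called were recomputed under 8 alternatives. Shares over all tomato genes were computed only for the main setting and the swap. The counts under the other alternatives thus cannot be set against all genes. At a log2 fold of 2, the calls at 3 over 1, 5 over 3 and 5 over 1 DAG were 2, 0 and 1 in pepper:tomato (3, 3 and 2 at a log2 fold of 1). The same 3 comparisons gave 1, 0 and 2 in tomato:pepper (3, 1 and 3), and 1, 0 and 2 in the self-graft (4, 1 and 4). Between grafts at 1, 3 and 5 DAG they were 0, 0 and 1 for pepper:tomato over the self-graft (2, 0 and 2), 0, 0 and 0 for tomato:pepper over it (1, 1 and 0), and 0, 0 and 0 between the heterografts (2, 2 and 2). With a pseudocount of 5, 5 over 3 DAG gave 1 call in pepper:tomato and 0 calls in tomato:pepper and the self-graft, and between grafts 1 for pepper:tomato over the self-graft at 5 DAG, 0 for tomato:pepper over it at 3 DAG, and 1, 1 and 1 between the heterografts. With 0.1, pepper:tomato had 1 call and tomato:pepper 2 calls against the self-graft at 3 DAG. With a level minimum of 5, 0 calls were left at 5 over 3 DAG in tomato:pepper and the self-graft, and 1 between the heterografts at 3 DAG. Centring gave 1 call at 5 over 3 DAG in pepper:tomato, and 1 for pepper:tomato over the self-graft at 1 DAG. It gave 0 for tomato:pepper over the self-graft at 3 DAG, and 1 and 1 between the heterografts at 1 and 3 DAG. Within pepper:tomato, centring left ACO3 at 3 over 1 DAG uncalled, at -0.78. ACO1 at 5 over 1 DAG became called there, higher at 1.06.

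In deposited FPKM, 5 over 3 DAG gave 0 calls in both heterografts. The self-graft had 2 in tomato TPM, ACS2 lower and ACO4 higher. Between grafts, FPKM gave 2 and 1 for pepper:tomato over the self-graft at 3 and 5 DAG, the 1 being ACO4, lower, 0 for tomato:pepper over it at 3 DAG, and 0 and 0 between the heterografts at 3 and 5 DAG. Among called changes, signs turned in FPKM for ACO3 at 3 over 1 DAG (0.11) and ACO1 at 5 over 3 DAG (-0.33) in pepper:tomato, for ACO4 at 1 DAG (-0.87) and ACO3 at 5 DAG (-0.018) in pepper:tomato over the self-graft, for ACO1 in tomato:pepper over it at 3 DAG (-0.27), and for ACS2 between the heterografts at 1 DAG (-0.73). Of changes not called, 3 turned sign and passed 2-fold in FPKM, all in pepper:tomato: ACO1 at 3 over 1 DAG (1.29), and over the self-graft ACS2 at 1 DAG (-1.19) and ACO4 at 5 DAG (-1.42). FPKM of a heterograft is shared with pepper genes. Swapping 3 DAG left 1 call at 5 over 3 DAG in pepper:tomato, gave 1 for pepper:tomato and 0 for tomato:pepper over the self-graft at 3 DAG, and turned ACS2 and ACO4 between the heterografts (1.14 and 1.36). For all other changes, the cause was not tested. Of 523 single changes recomputed, 429 moved by no more than 1.5-fold, and 38 turned sign, 8 of them called before. The 429 include 72, 72 and 64 from the fold, no filter and a level minimum of 5, which cannot alter a log2 value. On the other scale, 20 changes over time stayed within 1.5-fold, 14 moved further and 2 called ones turned sign. Between grafts, deposited FPKM gave 8, 23 and 4. Leaving out the filter on low values moved no count by over 1.5 times. No paired analysis was possible because each group has 1 deposited value, so leaving out a replicate could not be done either. Depth cannot be given.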

Other observations

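Tomato genes whose levels were most like those of ACS2 over the 9 groups, by Pearson's r of log2(tomato TPM + 1), were Solyc05g008380 (0.98), Solyc05g007150 (0.95) and Solyc02g089060 (0.93). They were the highest of 14233 genes at 10 tomato TPM or more in at least 1 group. For ACO4 they were Solyc08g083380, Solyc05g054310 and Solyc10g084610 (0.99, 0.99 and 0.98). Within the family, r with ACO4 was 0.81 for ACO3 and 0.45 for ACO1. The 9 points include 3 DAG as labelled and share the scaling of each group, so r is a description only.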
